A study of Mus musculus with 6 samples.

Results

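Fmr1nb and the genes of the fragile X protein family were examined in primary embryonic fibroblasts with and without Asciz. The members were the bead array probes that carry, ignoring case, the name FMR1NB, FMR1, FXR1, FXR2, NUFIP1, CYFIP1, CYFIP2 or AFF2. These 8 names matched 14 of the 45281 probes and 7 of the 30774 distinct names on the array, FXR1 being the one without a probe. A further 3 probes of the same genes carried older names, FXR1H for Fxr1 and 3830422N12RIK for Fmr1nb, and are reported beside the 14. Fmr1nb was chosen on its difference between the genotypes in these same arrays, so its knockout and wild-type levels are given as a description, with no test. The other genes were taken by name, as its chromosomal neighbour, as paralogues of that neighbour or as partner proteins, and were tested.

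The 6 cultures comprised 3 from Asciz-/- (knockout) and 3 from Asciz+/+ (wild-type) embryos of embryonic day 12.5 on a C57BL/6 background, with 1 array per culture. All were primary mouse embryonic fibroblasts (MEF), the adherent connective-tissue cells that grow from minced embryos, kept 48 hours in their first dish in serum-containing medium and passaged once. Asciz is the older name of Atmin, a zinc-finger transcription factor; how the allele was made is not stated in the labels. Each probe is a bead type whose mean brightness is its intensity, and a probe was taken as detected on an array where its detection p, set against negative control beads, was under 0.05.

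FMRP, the product of Fmr1, is an RNA-binding protein that represses translation of bound messages, and its loss causes fragile X syndrome in humans. FXR1 and FXR2 are its autosomal paralogues. NUFIP1 and CYFIP1/CYFIP2 were found as FMRP-interacting proteins, and AFF2 (FMR2) is an unrelated nuclear protein encoded at another fragile site of the X chromosome. Fmr1nb ("Fmr1 neighbour") lies next to Fmr1, encodes a predicted membrane protein and is known in humans as the cancer/testis antigen NY-SAR-35, expressed mainly in testis.

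The arrays had median intensities between 88.7 and 97.9, with 17580 to 18794 probes detected and a median of 43 beads per probe on each. The brightest of 3 Atmin probes had 208.9, 173.9 and 139.2 intensity units in knockout and 624.5, 450.7 and 582.4 units in wild-type replicates 1, 2 and 3, a normalized difference of -1.99 (SE 0.16, adjusted p = 0.00646 by limma), in the direction of the labels. All 12 fibroblast markers fixed for checking the cell type were above the detection filter. The 4 Xist probes were detected in wild-type replicate 1 and in no other culture, and the Y-linked Ddx3y had 124.3 intensity units there against 833.2 to 1690.1 in the other 5 cultures. The detected Uty probe did not separate that culture, at 116.3 units against 101.7 to 124.3 in the other cultures. By Xist and Ddx3y, wild-type replicate 1 is called the XX culture below, which touches Fmr1nb, Fmr1 and Aff2 as X-linked genes. Knockout replicate 3 correlated least with the other arrays (mean r of 0.979 across genes, against 0.985 to 0.989). Counts of calls and the balance of the partner lists are given with and without these 2 cultures.

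Fmr1nb signal appeared in all 3 knockout cultures and in no wild-type culture, and its size differed between the knockout cultures. The brightest probe had 752.7, 253.5 and 308.5 intensity units in knockout replicates 1, 2 and 3, against 92.4, 85.4 and 88.7 in wild-type replicates 1, 2 and 3. The knockout values did not overlap the wild-type ones, and the wild-type values lay within background, with detection p from 0.368 to 0.413. The standard error over the beads of that probe was 41.8 units in knockout replicate 1, 10.7 in replicate 2 and 10.3 in replicate 3, so replicate 1 stood above the other knockout cultures by more than bead-to-bead error, which covers the measurement of 1 array only. On the normalized log2 scale the values were 9.22, 7.77 and 8.36 in the knockout cultures, against 4.41, 4.39 and 4.39 in the wild-type cultures. The means were 8.45 ± 0.73 in knockout and 4.40 ± 0.01 in wild type (SD, n = 3 each), a difference of 4.05. Mean intensities not corrected for background were 438 ± 274 in knockout and 88.8 ± 3.50 in wild type, and the log2 difference was 2.26 without background correction. Because the wild-type signal was not well above background, a fold on the background-corrected scale is given only as a bound within that scale. With wild-type values raised, array by array, to at least the lowest level of any detected probe, Fmr1nb was at least 12.6-fold higher in the knockout cultures on the background-corrected scale.

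The second FMR1NB probe showed the same order of knockout cultures at much lower brightness. It had 116.6, 93.9 and 103.0 intensity units in knockout replicates 1, 2 and 3, against 85.7, 88.9 and 89.6 in the wild-type replicates. It was detected in knockout replicates 1 and 3, with detection p of 0.00107 and 0.00321, and not in knockout replicate 2 (0.0972) or in any wild-type culture. The groups did not overlap on this probe either. The same calculation gave a level 1.25-fold higher in knockout on the background-corrected scale. This is not a firm lower bound, since knockout replicate 2 entered at its own value though undetected. With detection on 2 arrays this probe fell below the filter of 3 arrays. The third probe, 3830422N12RIK, was detected on no array, at 87.4, 81.2 and 84.7 units in knockout and 92.4, 80.9 and 82.0 units in wild-type cultures. Where in the transcripts the 3 probes lie is not stated in the files.

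**Figure D1:**
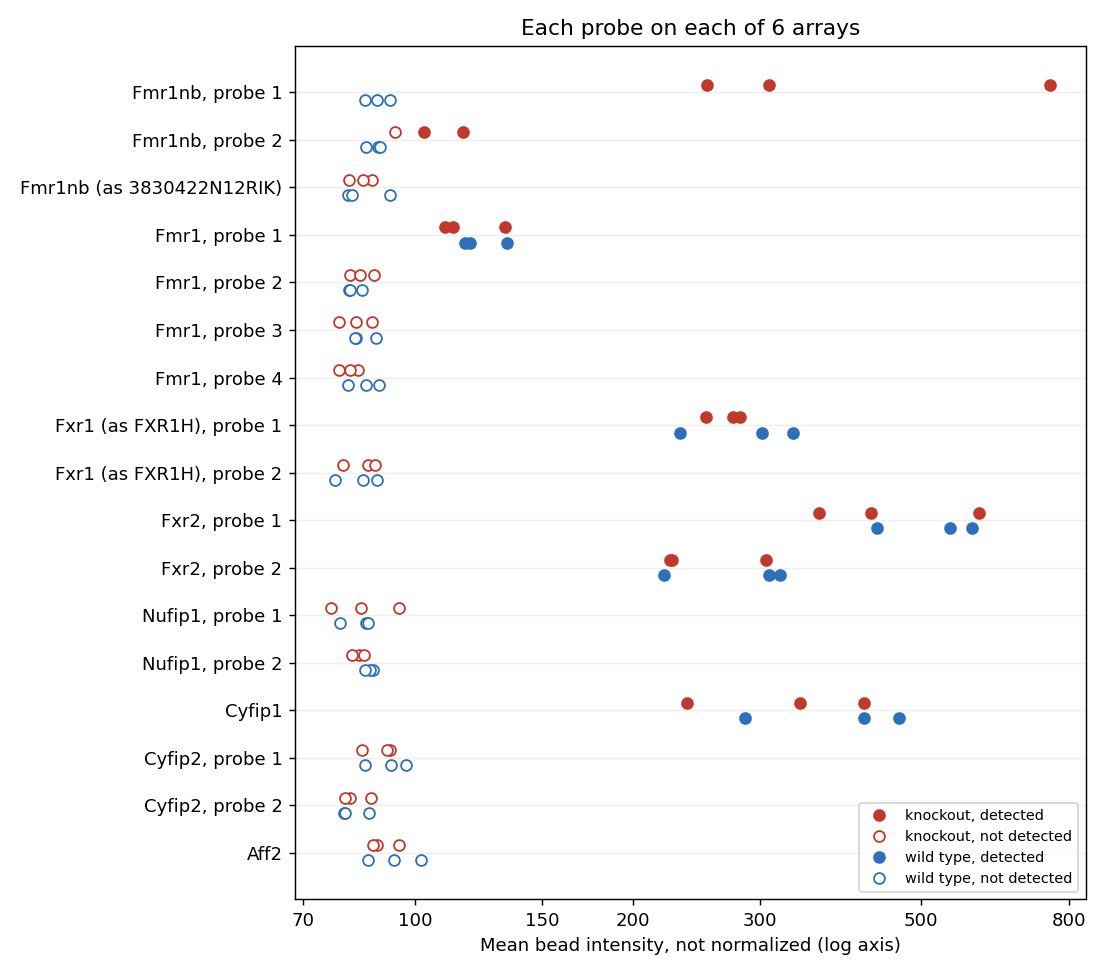
Mean bead intensity (not normalized, log axis) of each probe of the 8 genes on each of the 6 arrays, knockout in red above wild type in blue, filled where detected. The first 2 Fmr1nb probes have all knockout points above the wild-type points. The second Nufip1 probe, detected on no array, has all knockout points below the wild-type points before normalization, and in the other rows the groups overlap.

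The detection pattern of the brightest Fmr1nb probe was uncommon on the array. Of all 45281 probes 34, or 0.0751%, were detected on all 3 knockout arrays and no wild-type array, and 50 showed the opposite pattern. Within the 34 the Fmr1nb difference of 4.05 was the largest. The next, of a probe named LOC100040479 with no current gene name in the reference table, was 2.42. Because Fmr1nb was chosen on its difference in these arrays, its pattern and rank describe that choice and lend it no support.

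The sequences upstream of Fmr1nb and of Fmr1 are shown because both genes lie side by side on the X chromosome and their probes behaved differently. They come from RefSeq (build GRCm38.p6), run from 250 bases before to 50 after the annotated start, and have each CG dinucleotide in capitals. Promoter entries matched 7 of the 8 genes. Fmr1nb is at chrX:68761589-68761888 on the plus strand, and the more upstream of 2 Fmr1 entries is at chrX:68678291-68678590 on the plus strand.
Fmr1nb: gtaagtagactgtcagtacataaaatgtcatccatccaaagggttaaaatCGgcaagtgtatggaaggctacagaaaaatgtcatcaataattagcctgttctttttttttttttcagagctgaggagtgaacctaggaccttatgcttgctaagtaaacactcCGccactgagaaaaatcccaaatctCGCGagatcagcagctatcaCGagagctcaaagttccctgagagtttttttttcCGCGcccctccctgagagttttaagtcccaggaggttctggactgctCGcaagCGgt
Fmr1: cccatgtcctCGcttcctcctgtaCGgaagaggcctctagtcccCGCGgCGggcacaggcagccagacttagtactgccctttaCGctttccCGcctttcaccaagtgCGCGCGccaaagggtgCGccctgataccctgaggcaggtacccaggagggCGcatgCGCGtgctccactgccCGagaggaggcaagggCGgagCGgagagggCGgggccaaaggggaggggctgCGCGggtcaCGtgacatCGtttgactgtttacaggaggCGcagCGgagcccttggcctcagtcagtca
The Fmr1nb promoter held 9 CG dinucleotides at 44% G and C, against 24 at 65.7% for Fmr1. Of the 32851 promoters of this length 45.8% held at least 9 and 20% at least 24, and the median was 7. The promoters of Fxr1, Fxr2, Nufip1, Cyfip2 and Aff2 held 43, 32, 19, 29 and 16. Of 3 motifs searched on both strands, CTCGCGAG, the core of a palindromic element known to bind the methylation-sensitive factor BANP, occurred 1 time upstream of Fmr1nb, in none of the other members' promoters and in 0.919% of all promoters. CACGTG, the E-box bound by USF and MYC family factors, occurred in the Fmr1 promoter and in 7.15% of all promoters. TATAAA occurred in no member's promoter and in 13.6% of all promoters. The motifs were picked after reading these sequences, and a match describes letters, not binding.

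Fmr1 itself, the adjacent gene, gave no detectable difference. Its 1 detected probe had 133.2, 112.8 and 110.0 intensity units in knockout replicates 1, 2 and 3, against 134.0, 117.4 and 119.2 in wild-type replicates 1, 2 and 3. The ranges overlapped. Before normalization the highest intensity came from the XX culture, whose array also had the highest median intensity, and after it the highest level was in wild-type replicate 2. After normalization the levels were 5.79, 5.61 and 5.63 in knockout and 5.60, 5.80 and 5.41 in wild type on the log2 scale, with means of 5.68 ± 0.10 in knockout and 5.60 ± 0.20 in wild type (SD, n = 3 each). The difference was 0.07 (SE 0.14, adjusted p = 0.923 by limma), with a 95% confidence interval from -0.25 to 0.40, which spans 0.843-fold to 1.32-fold. Its sign was not stable: it was -0.023 without wild-type replicate 3 and -0.051 when arrays were scaled to the median of all probes, under which the median difference over the tested probes was -0.18. This probe was dim, since the lowest log2 value of any detected probe lay between 4.75 and 4.87 across arrays. The other 3 Fmr1 probes were detected on no array, between 78.6 and 87.9 units in knockout and between 80.9 and 89.3 units in wild-type cultures.

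The genes around Fmr1nb were followed 5 places to each side in the reference gene table. On one side these are Fmr1, the non-coding Fmr1os and pseudogenes, and on the other pseudogenes, the predicted coding gene Gm6812 and then Aff2. Of these 10 neighbours 4 had a probe. Gm14698, the pseudogene immediately beyond Fmr1nb, was detected on all 6 arrays at 356.6, 233.8 and 186.7 units in knockout replicates and 375.6, 230.4 and 320.5 units in wild-type replicates. Its groups overlapped, with a normalized difference of -0.11 (SE 0.19, adjusted p = 0.919 by limma). Gm5638, on the far side of Fmr1, was detected on 1 wild-type array and no knockout array, at 88.0 to 92.8 units in knockout and 97.5 to 99.5 units in wild-type cultures. It lay below the filter of 3 arrays, its normalized values overlapped between genotypes, and no fold is given. Aff2, a nuclear RNA-binding protein of the AF4/FMR2 family, was detected on no array, at 95.2, 88.6 and 87.6 units in knockout and 102.0, 86.2 and 93.5 units in wild-type replicates 1, 2 and 3. Its highest intensity was again in the XX culture, where the detection p was 0.0919.

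The paralogues of Fmr1 were expressed in both genotypes at overlapping levels. Fxr2 had 2 detected probes. The brighter had 600.9, 426.4 and 361.9 intensity units in knockout replicates and 588.9, 434.8 and 548.0 units in wild-type replicates, with normalized means of 8.74 ± 0.11 in knockout and 8.70 ± 0.11 in wild type (SD, n = 3 each). Its difference was 0.04 (SE 0.12, 95% interval -0.24 to 0.33, adjusted p = 0.950 by limma). The second Fxr2 probe had 305.7, 225.3 and 226.4 units in knockout and 308.7, 220.8 and 319.2 units in wild-type cultures, a normalized difference of 0.07 (SE 0.13, 95% interval -0.22 to 0.36, adjusted p = 0.919 by limma). On both probes knockout replicates 2 and 3 and wild-type replicate 2 were the dimmer cultures before normalization, and the genotypes overlapped.

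Fxr1, the paralogue needed for muscle development in mice, was measured only under its older name FXR1H. Its detected probe had 281.0, 274.9 and 252.8 units in knockout and 332.4, 232.3 and 301.3 units in wild-type replicates. Normalized levels were 7.54, 7.93 and 7.95 in knockout and 7.63, 7.63 and 7.61 in wild type, so that knockout replicates 2 and 3 lay above every wild-type culture and knockout replicate 1 below them. The difference of 0.18 (SE 0.14, 95% interval -0.15 to 0.51, adjusted p = 0.796 by limma) was within the spread between knockout cultures. Without knockout replicate 1 it was 0.32 (unadjusted p = 0.0358, adjusted p = 0.479 by limma). The second FXR1H probe was detected on no array.

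Of the partner genes only Cyfip1 was detected, with no detectable difference. Cyfip1, which links FMRP to translation initiation and belongs to the actin-regulating WAVE complex, had 416.6, 340.2 and 237.6 units in knockout and 417.6, 285.9 and 465.9 units in wild-type replicates. Normalized means were 8.14 ± 0.27 in knockout and 8.15 ± 0.21 in wild type (SD, n = 3 each), a difference of -0.02 (SE 0.18, 95% interval -0.42 to 0.39, adjusted p = 0.989 by limma). Knockout replicate 3 was the lowest, and without it the difference was 0.14. Cyfip2, the paralogue that predominates in neurons, was detected on no array by either of its probes, at 80.2 to 92.4 units in knockout and 79.8 to 97.1 units in wild-type cultures. Nufip1, a nuclear zinc-finger protein that assists assembly of box C/D small nucleolar ribonucleoproteins (snoRNPs), was likewise detected on no array by either probe. Its 6 knockout readings lay between 76.6 and 95.2 units and its 6 wild-type readings between 78.8 and 87.5 units, and the highest, in knockout replicate 2, had a detection p of 0.0727.

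Among the 12 probes named for members other than FMR1NB, 4 passed the detection filter and 0 passed an adjusted p of 0.05, where 8 of 18221 tested probes, or 0.0439%, did by limma. At an unadjusted p under 0.05 by limma the count was also 0, where 825 of 10700 genes, at 1 probe per gene, had such a p. In none of the 4 did the genotypes separate without overlap, as they did for 14.1% of tested probes. With 4 probes, counts of 0 cannot be told apart from these shares. The count stayed at 0 without the XX culture and knockout replicate 3. The 95% intervals of the 4 probes and of FXR1H together spanned 0.746-fold to 1.43-fold, so smaller changes could not be seen with 3 arrays per genotype. The other 8 of the 12 were detected on no array, between 76.6 and 102.0 units, with normalized differences from -0.06 to 0.15, and changes at levels below detection were not measurable.

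**Figure D2:**
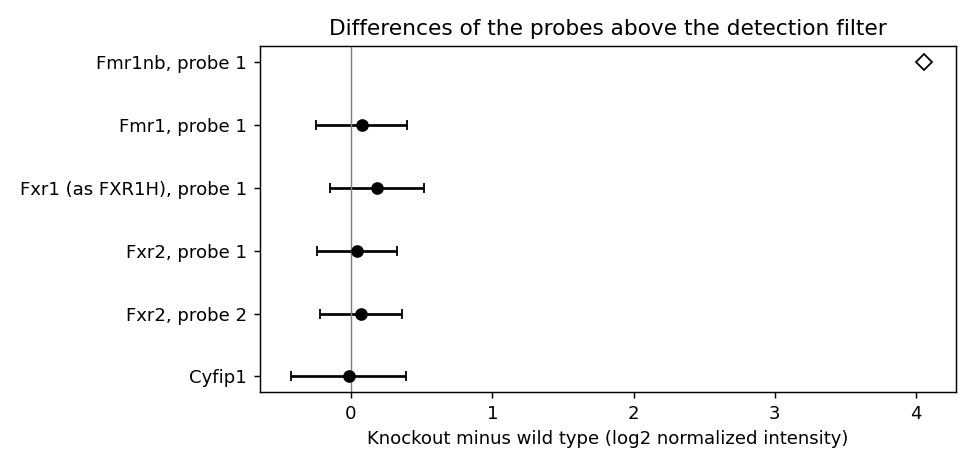
Knockout minus wild type on the normalized log2 scale for the probes above the detection filter, with 95% confidence intervals (n = 3 arrays each). The 5 probes of Fmr1, Fxr1, Fxr2 and Cyfip1 have intervals that include 0. Fmr1nb, drawn as an open diamond at 4.05 without an interval, was chosen for its difference and had wild-type values within background.

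Genes that work with these proteins were read from 4 lists, at 1 probe per gene, the brightest. Over all 10700 genes 5 passed the threshold, or 0.0467%, 47.8% were above 0 and the median was -0.01. None of the 46 tested partner genes passed in either direction, also without the XX culture and knockout replicate 3. Of the WAVE complex and Rac1, which bind Cyfip1 and Cyfip2, 9 of 10 were tested, 2 above and 7 below 0, with a median of -0.12. Without the XX culture and knockout replicate 3 these were 3 and 6. The smallest p was that of Abi2, an adaptor subunit, at 9.11 ± 0.08 in knockout and 9.38 ± 0.12 in wild type (SD, n = 3 each; difference -0.27, SE 0.12, adjusted p = 0.671 by limma). Wasf3 was detected on no array.

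Of 20 RNA-binding and translation partners of FMRP 18 were tested, 6 above and 12 below 0, with a median of -0.06. Without the XX culture and knockout replicate 3 there were 10 above and 8 below. The RNA helicase of nonsense-mediated decay Upf1 had the smallest p (difference 0.27, SE 0.20, adjusted p = 0.774 by limma). Of 11 genes listed as Nufip1 partners, mostly box C/D snoRNP proteins and their assembly factors, 9 were tested. Of these 3 were above and 6 below 0, with a median of -0.04. Without the XX culture and knockout replicate 3 the balance turned, to 6 above and 3 below with a median of 0.06. Snu13, the snoRNP core protein that binds the RNA first, was the only 1 of the 46 partner genes with an unadjusted p under 0.05 by limma. Over all 10700 genes 825 had such a p, a larger share than among the partner genes. Snu13 was at 8.43 ± 0.07 in knockout and 8.02 ± 0.12 in wild type (SD, n = 3 each). Its difference was 0.41 (SE 0.12, adjusted p = 0.537 by limma). Of 14 paralogues and elongation partners of AFF2, 10 were tested, 6 above and 4 below 0, with a median of 0.05, and 7 above and 3 below without those 2 cultures. The histone methyltransferase Dot1l had the smallest p there (difference -0.37, SE 0.22, adjusted p = 0.730 by limma). Under scaling to the median of all probes the 4 medians were -0.24, -0.25, -0.25 and -0.17, beside a shift of -0.18 over all tested probes.

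**Figure D3:**
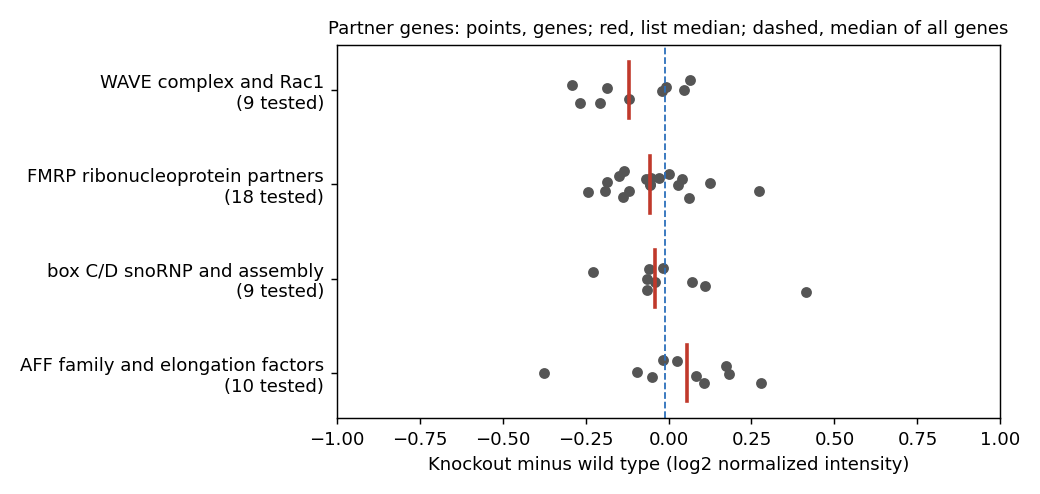
Knockout minus wild type on the normalized log2 scale for each tested gene of the 4 partner lists. Grey points are genes, red bars list medians (-0.12, -0.06, -0.04 and 0.05 from top to bottom) and the dashed line the median of all genes at -0.01; no point passed the test.

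Transcripts linked to germ cells or to the testis were examined because Fmr1nb is known from testis. Of 29 listed genes 27 had a probe, 38 probes in all, and 22 of the 27 were detected on no array, among them Ddx4 and Dazl, which define germ cells. None of the 38 probes had the pattern of detection on all 3 knockout and no wild-type arrays that 0.0751% of all probes showed. The X-linked homeobox gene Rhox5, which is not confined to germ cells, was detected on all arrays. It had 119.7, 122.1 and 134.8 units in knockout and 173.9, 113.7 and 111.6 units in wild-type replicates, a normalized difference of 0.20 (SE 0.32, adjusted p = 0.911 by limma). Before normalization its highest value was in the XX culture, and after it in knockout replicate 3, at 6.37 against 6.30. Sertoli and Leydig cell markers, each gene read at its brightest probe, overlapped between genotypes. Their summed background-corrected normalized intensities were 1773 to 2330 in knockout and 1927 to 2315 in wild type for 8 Sertoli genes, with Amh and Fshr undetected, and 39.5 to 56.8 in knockout and 46.0 to 63.7 in wild type for 8 Leydig genes, with Star and Insl3 among the 6 undetected. The Sertoli sum rests mostly on Sox9, named after its values were seen. Sox9 had 2150, 1443 and 1191 intensity units in knockout and 2224, 1748 and 1884 units in wild-type replicates.

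Summed levels of the markers of 3 other cell types, each gene read at its brightest probe, did not overlap between genotypes. They were higher in knockout for muscle and neurons and lower for macrophages. The lists were chosen with earlier results of these data known. Of single tested probes 14.1% also separated without overlap, and the share to be expected of sums was not worked out. The 16 skeletal muscle markers summed to 6480 to 8432 in knockout and 4425 to 6055 in wild-type cultures, with Ckm and Myf5 undetected. The 14 macrophage and leukocyte markers summed to 449.9 to 713.1 in knockout and 983.6 to 1978 in wild-type cultures, with Ptprc and Adgre1 undetected. The 11 neuronal markers summed to 1009 to 1895 in knockout and 602.8 to 930.4 in wild-type cultures. At their brightest probes the defining Tubb3, Elavl3, Elavl4, Snap25 and Nefl were detected on no array. Of 6 tested genes 3 were above 0, with a median of 0.02. In knockout replicates 1, 2 and 3 the neuronal sum was 1895, 1009 and 1186 and the muscle sum 6480, 8432 and 7768. The neuronal sum rests mostly on Stmn2 and Gap43, named after their values were seen. Stmn2 had 1039, 248.8 and 192.6 intensity units in knockout and 271.3, 280.7 and 416.6 units in wild-type replicates, and Gap43 had 944.2, 561.6 and 666.5 units in knockout and 402.1, 396.5 and 500.7 units in wild-type replicates. None of these markers passed the adjusted threshold singly. An unadjusted p under 0.05 by limma was found for 9 of 12 tested muscle genes, all higher in knockout, and 7 of 9 macrophage genes, all lower. Of 6 tested neuronal genes 1, Gap43, had such a p, and of all 10700 genes 825 did. The part of these markers in the Fmr1nb signal was not tested. In RNA from whole cultures, more cells of a type and more RNA per cell cannot be told apart.

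Profiles closest to that of the brightest Fmr1nb probe were found by the root mean squared difference over the 6 arrays, each probe centred on its own mean. Among tested probes with a gene name the closest were both probes of Sprr2k, a small proline-rich protein of the epithelial cornified envelope, at 0.97 and 1.04, then Minar2 at 1.21, Ide, the insulin-degrading enzyme, at 1.32 and Gstk1, a kappa-class glutathione S-transferase, at 1.43. Fmr1nb itself had a root mean square of 2.07 about its mean. The brighter Sprr2k probe had 2604, 2155 and 2025 units in knockout and 834.7, 221.3 and 783.8 units in wild-type replicates, so unlike Fmr1nb it was detected in every wild-type culture. Minar2 had 266.8, 148.8 and 140.2 units in knockout and 116.1, 100.9 and 112.4 units in wild-type replicates. The LOC100040479 probe, singled out after its values were seen, lay closer still at 0.84. It had 233.5, 140.0 and 154.3 units in knockout and 90.1, 80.0 and 90.4 units in wild-type replicates, the same order of knockout cultures as both detected Fmr1nb probes and no detection in wild type. Since these probes were chosen for their likeness, no test is given for them.

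**Figure D4:**
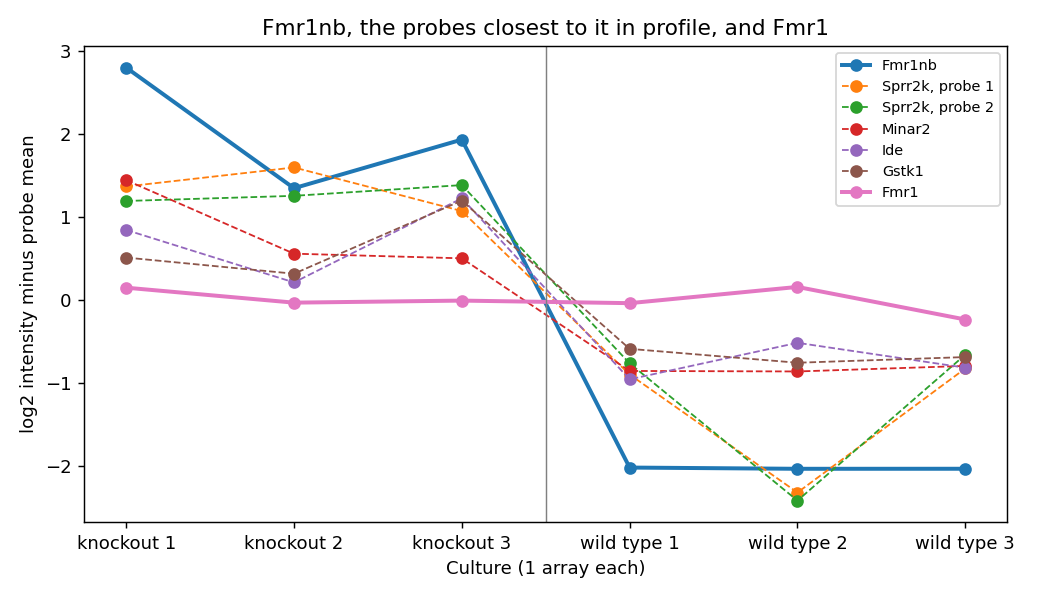
Normalized log2 intensity minus each probe's own mean in the 6 cultures, for the brightest Fmr1nb probe, the 5 named probes closest to it and the detected Fmr1 probe; lines only tie the points of a probe together. Fmr1nb spans more than the others, and the Fmr1 points lie close to 0.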

How the data were processed

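Biotin-labelled RNA of each of the 6 cultures was read on a MouseWG-6 bead array of 1 colour, per the labels and the file headers. The authors deposited mean bead intensity per probe with its bead SD and bead number, exported with GenomeStudio version 1.6.0 without normalization, per the file headers. The deposited detection values are a fraction in which 1 means detected; 1 minus it was the detection p. The deposited normalized values are a score that looks logarithmic; lumi is named in the submitters' processing notes, without its role, and neither source names the log base; its array medians are nearly equal, and it served as an alternative. The intensity file has 48 per-array columns, of which 24 were not used.

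Background correction and quantile normalization of the intensities used neqc from limma version 3.58.1 (R version 4.3.3), which adds an offset of 16 and takes log2, so differences of dim probes depend on this correction. The 18221 of 45281 probes detected (p under 0.05) on 3 or more arrays were tested with lmFit and eBayes across all of them, as knockout minus wild type in a two-sided test, adjusted by Benjamini-Hochberg, with a threshold of 0.05. The procedure was tested on simulated data. The series text gives 3 embryos per genotype for the 3 cultures, and the number of arrays limits the precision. Same-numbered cultures did not deviate together (correlations of 0.22, -0.19 and -0.21 for numbers 1, 2 and 3), so the numbers were not taken as pairs. Array names were updated through a RefSeq gene table of assembly GRCm38.p6, which matched 27400 probes by symbol, 940 by gene ID and 8300 by a synonym.

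The members, the lists and the rule for named genes were chosen with earlier results of these data known. Named were every member probe, 5 neighbours on each side of Fmr1nb, per partner list any gene past the threshold or else the one with the smallest p, cell type markers by range, and the 5 named probes closest in profile to Fmr1nb. Alternatives covered background correction, scaling, the filter, the probe rule, the variance model, array weights, a block for the replicate number, leaving out each array, 2 arrays left out together, and the submitters' values.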

Additional observations from a re-analysis of the deposited data

How the results depend on the processing

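The count of member probes past the threshold, FMR1NB left aside, was 0 under each of 18 alternatives, as was that of the partner genes, while the calls over the whole array ranged from 2 to 12. With the replicate number as a replicate block both counts were 0, with 6 calls over the array. Each number holds 1 culture of each genotype, so this block could not change the Fmr1 difference of 0.07. Only its error could move (SE 0.15, adjusted p = 0.944 by limma). The Fmr1nb difference, on which the gene was chosen, was positive under all 18 alternatives, between 1.64 and 4.39, against 4.05. As a plain difference of group means, it could not change with the filter, the probe rule, the variance model, array weights or the replicate block. Only the other alternatives bear on its size. It was 2.65 with normexp without negative controls and an offset of 50, 2.26 without background correction and 1.64 in the submitters' normalized values; the cause was not tested. The sign of small differences was not stable. Scaling to the median of all probes, added after seeing the data, moved the median of all tested probes to -0.18 and gave -0.051 for Fmr1, -0.046 for FXR1H and -0.18 and -0.15 for the Fxr2 probes. Leaving out each array in turn gave -0.023 to 0.17 for Fmr1, -0.013 to 0.10 for the brighter and 0.03 to 0.15 for the second Fxr2 probe, -0.11 to 0.14 for Cyfip1 and 0.11 to 0.32 for FXR1H. Without wild-type replicate 1 and knockout replicate 3 together the second Fxr2 probe had -0.0064 and Cyfip1 0.074, and with array weights Cyfip1 had 0.081. The cause of these sign changes was not tested. Adjusted p over the alternatives lay between 0.793 and 0.993 for Fmr1, 0.816 and 1.00 for the brighter and 0.840 and 0.998 for the second Fxr2 probe, 0.796 and 0.993 for Cyfip1 and 0.479 and 0.985 for FXR1H by limma. Dim signal over background limits Fmr1, and Cyfip2, Nufip1 and Aff2 were below detection.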
